A study of Mus musculus with 275 samples.

Results

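Tomm22 and 8 other genes of the mitochondrial protein import machinery were examined in the striatum of mice bred for their response to haloperidol, a blocker of D2-like dopamine receptors. The 9 genes (Tomm22, Tomm20, Tomm40, Tomm6, Tomm7, Timm23, Timm17a, Timm50 and Timm44) were carried by 12 of the 25697 probes on the array, with 3 probes for Timm44, 2 for Timm23 and 1 for each of the others. Tomm22 was selected on its measured difference: the study lists it among the transcripts that differ between lines in both the F2 and the HS-CC selections. Its High minus Low values in those selections are therefore given as a description, without a test. The other 8 genes were chosen as subunits of the same machinery, with earlier results of these data known.

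High (responsive) and Low (non-responsive) lines were bred from 3 founder populations by short-term selection on catalepsy, the failure to leave an imposed posture after the drug. In the F2 selection, founded on C57BL/6J and DBA/2J, 41 High and 42 Low animals were measured. In HS4, founded on C57BL/6J, DBA/2J, BALB/cJ and LP/J, there were 48 High and 48 Low animals, and in HS-CC, founded on the 8 parental strains of the Collaborative Cross, 48 High and 48 Low animals. Parents were phenotyped with haloperidol, and the animals measured were their progeny after the selected generations. A line is thus a bred population, and relatives within it share alleles. Each of the 275 animals gave 1 Illumina bead array. Ages are not given in the sources used here, and no drug treatment is labelled for the animals on the arrays.

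Nearly all mitochondrial proteins are made in the cytosol and enter the organelle as unfolded precursors. The TOM complex of the outer membrane receives them: Tomm20 and Tomm22 are receptors, Tomm40 forms the channel, and the small subunits Tomm6 and Tomm7 affect the assembly and stability of the complex. Precursors with a presequence then pass to the TIM23 complex of the inner membrane, where Timm50 is the receptor, Timm23 and Timm17a form the core of the translocase, and Timm44 tethers the Hsp70 import motor on the matrix side. In neurons these proteins supply the mitochondria of dendrites and axon terminals, and the spiny projection neurons of the striatum are rich in both.

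Values are on the deposited log2-like scale, on which a difference of 1 stands for about a doubling of signal in bright probes and may be understated in dim ones. Each selection was normalized on its own, so no level is compared between selections, nor between probes, which differ in brightness for the same amount of RNA. A probe counted as expressed in a selection where at least 25% of its arrays gave a value above background, set per array at the 95th percentile of probes for taste, olfactory and vomeronasal receptors (1341 in number).

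A few arrays stood apart, with a mean correlation to the other arrays of their selection more than 2.5 SD below the average. There were 3 in F2 (1 High, 2 Low), 4 for HS4 (3 High, 1 Low) and 1 for HS-CC (High). Results are given without them too where a call, a sign or a size changed. In HS4 the lowest mean correlations were 0.525 (High) and 0.535 (Low), against a median of 0.962. Arrays at 0.891 (High) and 0.862 (Low) were within the limit and stayed in. They gave the highest Tomm22 values of HS4, 13.11 and 12.90. In HS-CC a High array at 0.934, against a median of 0.978, also stayed in. Leaving out the outlying arrays therefore does not remove every array of low correlation. The sex labelled for HS4 animals matched the split in the Y-linked transcript Eif2s3y on only 41 of 96 arrays, so these animals are called arrays labelled HS4 High or Low and every HS4 direction rests on those labels. Of the spiny neuron markers found on the array, all 8 probes of 6 genes (Drd1, Drd2, Ppp1r1b, Tac1, Rgs9 and Pde10a) were expressed in every selection. Between lines, 0 of them were called. Cortical markers (5 of 5 probes) and choroid plexus markers (3 or 4 of 6 probes) were expressed as well, with 0 called in any selection. Expression by this threshold therefore cannot check the striatal label. In whole tissue, fewer cells of a type and less RNA per cell cannot be told apart.

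Tomm22 was chosen for its differences in F2 and HS-CC, and on the log2 scale the other import genes moved by far smaller amounts there. Tomm22 was lower in F2 High than in F2 Low animals and higher in HS-CC High than in HS-CC Low animals. In F2 its probe (ILMN_2507182) ran from 9.92 over a median of 10.90 to 11.97 in the 41 High animals, against 10.10, 11.11 and 11.94 in the 42 Low animals. In HS-CC it ran from 9.22 over 11.32 to 12.12 in the 48 High animals, against 9.39, 11.17 and 11.72 in the 48 Low animals. The ranges overlapped widely in both selections. In F2 the first quartiles lay further apart (10.20 in High, 11.03 in Low) than the extremes. In HS-CC the first quartiles were 11.05 in High and 10.35 in Low, and the upper part differed too. The third quartiles there were 11.68 in High and 11.37 in Low, beside highest values of 12.12 and 11.72. The High minus Low difference was −0.37 in F2 (SE 0.11, 95% interval −0.60 to −0.15) and 0.31 in HS-CC (SE 0.13, 95% interval 0.06 to 0.55). Since these differences chose Tomm22, their sizes may be overstated, and intervals that leave out 0 are no test here. In units of the SD within lines, these were −0.72 and 0.49. The largest of the other probes on that scale were Tomm6 in F2 (0.49) and the Timm44 probes in HS-CC (−0.57, −0.47 and −0.63).

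HS4 was not used to choose Tomm22 and could be tested. The probe ran from 9.26 over a median of 11.25 to 13.11 on the 48 arrays labelled HS4 High, against 9.10, 11.30 and 12.90 on the 48 labelled HS4 Low. The difference was −0.19 (SE 0.14, 95% interval −0.46 to 0.09) and did not pass limma's test (adjusted p = 0.989). The interval holds both 0 and a difference as large as that of F2.

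**Figure D1:**
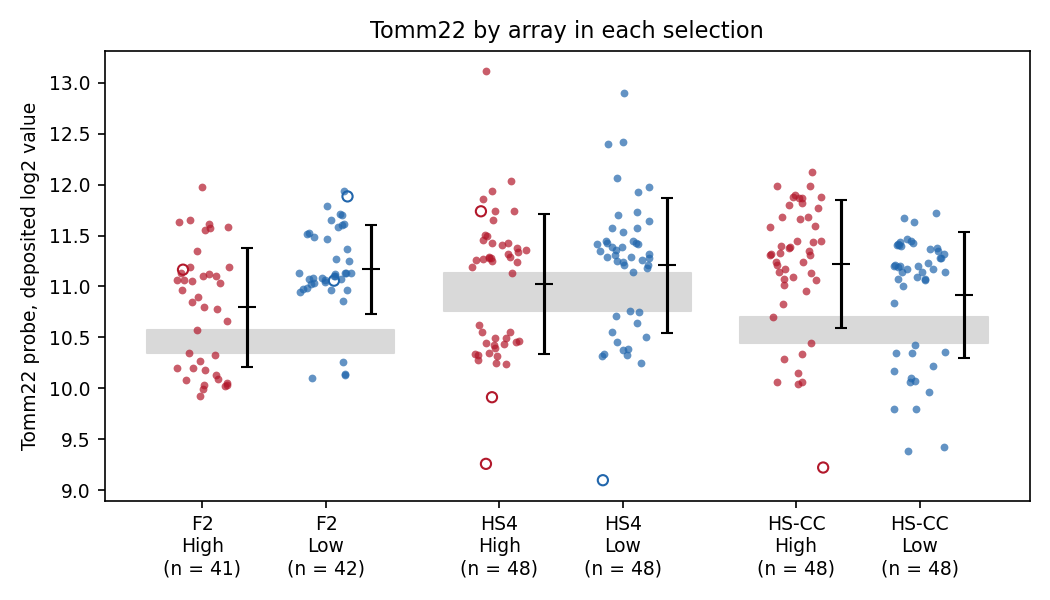
Deposited log2 value of the Tomm22 probe on each array (points), by selection and line, with mean and SD (black bars). Open circles are outlying arrays, and grey bands mark the widest gap in the values of the other arrays. In F2, 15 of 40 High and 4 of 40 Low arrays lie below the band.

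The sorted values of Tomm22 were searched for their widest gap. When the arrays of a selection were sorted by Tomm22, outlying arrays left out, the widest gap with at least 10 arrays on either side separated a lower group from the rest. In F2 the gap of 0.22 lay between 10.35 and 10.57, with 15 of 40 High animals (37.5%) and 4 of 40 Low animals (10%) below it. In HS-CC the gap of 0.26 lay between 10.44 and 10.70, with 7 of 47 High animals (14.9%) and 14 of 48 Low animals (29.2%) below it. For the arrays labelled HS4 the gap was wider, 0.37 between 10.76 and 11.13, with 18 of 45 High (40%) and 13 of 47 Low arrays (27.7%) below it. The next widest gaps in the same range were 0.12, 0.12 and 0.13 in F2, HS4 and HS-CC. The position of each gap was read from these values, so the shares are a description and carry no test. Any set of values has a widest gap, and whether Tomm22 forms separate groups was not tested.

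Within a line the Tomm22 probe varied more than nearly all other expressed probes. Its within-line SD was 0.52 in F2, 0.68 for HS4 and 0.62 for HS-CC, against medians over all expressed probes of 0.12, 0.29 and 0.16. It exceeded 99.3%, 96.8% and 99.6% of the 15300, 15219 and 15119 expressed probes of the 3 selections. The other member probes had SDs of 0.06 to 0.19 in F2, 0.08 to 0.50 in HS4 and 0.08 to 0.38 in HS-CC, and without outlying arrays their highest SD was 0.33 for HS4 and 0.28 for HS-CC. Tomm22 then stood at 0.61 and 0.59. With 1 probe for Tomm22, its signal could not be checked against a second probe, and probe sequences were not examined. A spread in signal and a spread in RNA therefore cannot be told apart.

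Of the receptors and channel of the outer membrane other than Tomm22, Tomm20 was the only one called in any setting, and Tomm40 was never called. Across all expressed probes, 0.922% were called in F2, 0.046% for HS4 and 3.41% for HS-CC at an adjusted p under 0.1 in limma. Tomm20 had a mean of 8.96 in F2 High against 8.94 in F2 Low animals, a difference of 0.02 (SE 0.02, adjusted p = 0.903), and 9.31 in HS-CC High against 9.33 in HS-CC Low animals, a difference of −0.01 (SE 0.06, adjusted p = 0.960). The 95% intervals of the Tomm20 difference were −0.03 to 0.07 in F2 and −0.12 to 0.10 in HS-CC.

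On the arrays labelled HS4, Tomm20 ran from 9.03 over a median of 9.21 to 9.65 in High, against 9.08, 9.15 and 9.53 in Low. The difference of 0.06 (SE 0.02) did not pass over all 96 arrays (adjusted p = 0.803). Without the 4 outlying arrays it was 0.07 (SE 0.02) and passed (adjusted p = 0.0106, with 0.158% of probes called in that fit). The ranges overlapped, and Tomm20 was dim, above background on 29.2% of the HS4 arrays. Tomm40, above background on 33.7% of F2 and 81.3% of HS4 arrays, differed by 0.02 (SE 0.01, adjusted p = 0.756) in F2 and −0.03 (SE 0.02, adjusted p = 0.989) in HS4. In HS-CC it did not count as expressed, since 19.8% of the arrays exceeded background, and was not tested.

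The small TOM subunits were brighter and close to equal in the lines. Tomm6 had a mean of 10.40 in F2 High against 10.35 in F2 Low animals, a difference of 0.05 (SE 0.02, adjusted p = 0.482), which was the largest among the 11 other member probes in F2. In HS4 and HS-CC the Tomm6 differences were −0.00 (SE 0.05) and −0.02 (SE 0.04), and the sign turned in both without the outlying arrays (0.02 and 0.00). Tomm7 differed by 0.03 (SE 0.04) in F2, 0.03 (SE 0.08) in HS4 and 0.02 (SE 0.06) in HS-CC, with adjusted p-values of 0.920, 0.990 and 0.941. The last of these became −0.00 without the outlying array.

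In the TIM23 complex the core subunits did not pass in any selection. The first Timm23 probe differed by 0.01 (SE 0.02) in F2 and 0.02 (SE 0.02) in HS-CC and was not expressed in HS4, where 13.5% of arrays exceeded background. The second Timm23 probe differed by 0.00 (SE 0.02) in F2, 0.06 (SE 0.02, adjusted p = 0.836) in HS4 and 0.00 (SE 0.03) in HS-CC. Both probes were dim, and over arrays they hardly followed each other, with r of 0.07 in F2 and 0.12 in HS-CC without outlying arrays. Timm17a differed by 0.02 (SE 0.02) in F2, −0.14 (SE 0.10) in HS4 and −0.10 (SE 0.08) in HS-CC, and the HS-CC difference of medians had the other sign (0.01). Without outlying arrays the Timm17a difference was −0.07 in HS4 and −0.03 in HS-CC. Its lowest values, 9.42 in HS4 High and 9.59 in HS-CC High, came from outlying arrays and lay far below the first quartiles of their groups, 13.38 and 13.01.

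Timm50, the presequence receptor of TIM23, differed by 0.04 (SE 0.03) in F2, −0.01 (SE 0.08) in HS4 and −0.01 (SE 0.04) in HS-CC, with adjusted p-values of 0.777, 0.996 and 0.968. Without outlying arrays it was −0.09 in HS4 and −0.04 in HS-CC, and still did not pass. The 95% intervals reached 0.10 in F2 and 0.16 in HS4, so differences of the size of Tomm22 in F2 lay outside them.

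Timm44 fell in HS-CC High animals by probe 3, the only one of 10 other member probes called there. This probe ran from 9.53 over a median of 9.99 to 10.15 in HS-CC High, against 9.83, 10.04 and 10.22 in HS-CC Low animals. The ranges overlapped widely, with a difference of −0.06 (SE 0.02, adjusted p = 0.0947), and without the outlying array −0.06 (SE 0.02, adjusted p = 0.0622, 4.54% of probes called). The other Timm44 probes lay at −0.07 (SE 0.03, adjusted p = 0.150) and −0.07 (SE 0.03, adjusted p = 0.285), on the same side and without passing. The call of probe 3 was lost at a false discovery rate of 0.05 and with an intensity trend in the fit.

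In F2 the Timm44 differences were −0.00, −0.03 and −0.05, and in HS4 0.04, 0.02 and 0.02, none of which passed. Without outlying arrays they were 0.01, −0.01 and −0.04 in F2 and 0.05, −0.03 and −0.02 in HS4, and none passed. Unlike those of Timm23, the Timm44 probes followed one another over arrays, with r of 0.51 to 0.61 in F2, 0.62 to 0.83 in HS4 and 0.28 to 0.47 in HS-CC without outlying arrays. With 1 of 10 other member probes called in HS-CC and 0 of 11 in F2 and 0 of 10 in HS4, the counts are too small to be set apart from the shares over all expressed probes. Without outlying arrays, 0 of 11 were called in F2 too, against 1.43% of all expressed probes. At an unadjusted p under 0.05 in limma, the counts were 1 of 11 in F2, 2 of 10 in HS4 and 3 of 10 in HS-CC. The share of all expressed probes under this unadjusted limit was not taken. Counts at that limit, here and below, therefore have no baseline and nothing is read from them.

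**Figure D2:**
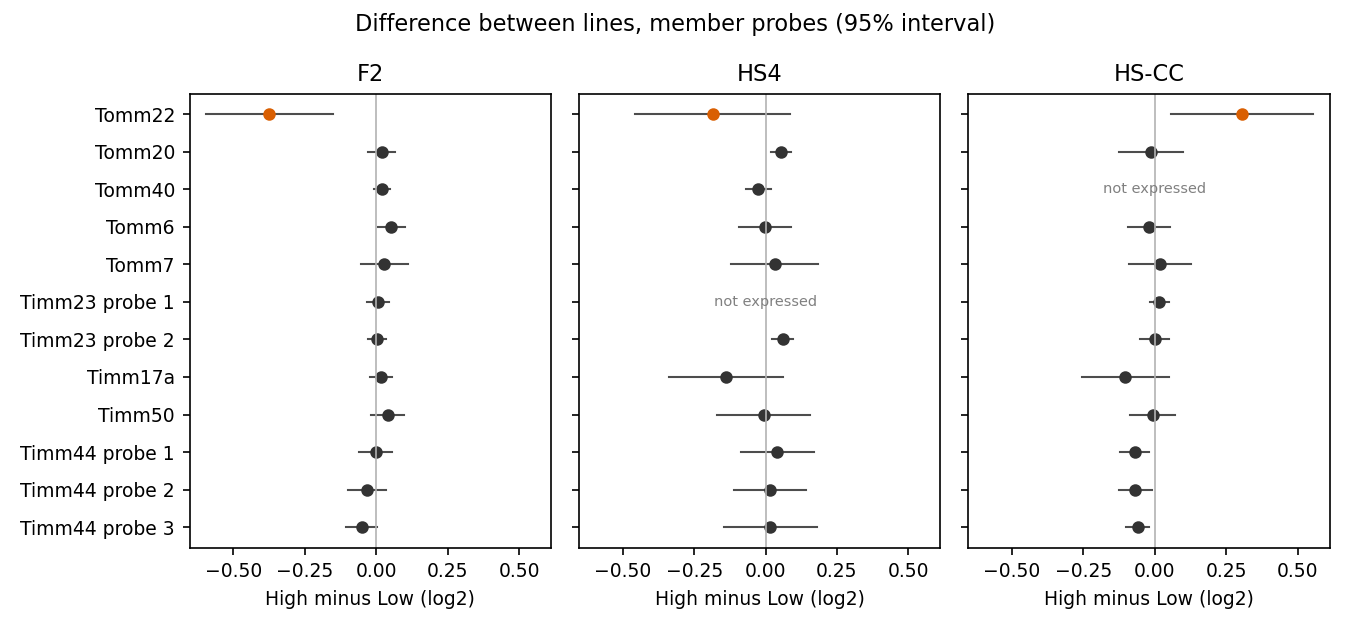
High minus Low difference on the log2 scale (points) with the 95% interval (lines) for each member probe in F2, HS4 and HS-CC. Tomm22 (orange) lies at −0.37, −0.19 and 0.31, and the other probes lie between −0.14 and 0.06. The Tomm22 intervals in F2 and HS-CC are no test, since those differences chose it.

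Tomm22 was also set against the other subunits on the same arrays. In F2 and HS-CC this is a description without a test, since those differences chose Tomm22. The mean of the others hardly moved, so the contrast largely repeats the Tomm22 difference. The mean of the other expressed import genes, each centred on its selection mean, differed between High and Low by 0.02 (SE 0.01) in F2, −0.00 (SE 0.02) in HS4 and −0.03 (SE 0.02) in HS-CC. Tomm22 minus that mean averaged −0.20 ± 0.58 in F2 High, against 0.19 ± 0.43 in F2 Low animals (SD, n = 41 and 42), a difference of −0.39 (SE 0.11). In HS-CC it averaged 0.17 ± 0.60 in High and −0.17 ± 0.65 in Low animals (SD, n = 48 each), a difference of 0.33 (SE 0.13). On the arrays labelled HS4 it averaged −0.09 ± 0.64 in High and 0.09 ± 0.61 in Low (SD, n = 48 each), a difference of −0.19 (SE 0.13) that did not pass a two-sided permutation test (p = 0.151). For the other member probes the difference between selections was tested with limma's interaction term, which calls 0.0214% (F2 against HS4), 0.622% (F2 against HS-CC) and 0.572% (HS4 against HS-CC) of 13994 probes. It called 0 of those expressed in all selections, with a smallest unadjusted p of 0.0420 for the second Timm23 probe between HS4 and HS-CC (adjusted p = 0.684). Tomm40 and the first Timm23 probe were not expressed in every selection and were not in this fit. The fit used 1 estimate of spread per probe for all 6 groups. HS4 varied more, with a median within-line SD of 0.29, against 0.12 in F2 and 0.16 in HS-CC, which limits the contrast of F2 with HS-CC.

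The wider import pathway had no called probe in any selection, a count that cannot be set apart from the small shares called over all expressed probes (0.922%, 0.046% and 3.41% in F2, HS4 and HS-CC). Of 36 further import genes listed, 31 were matched to 50 probes, of which 45, 47 and 46 were expressed in F2, HS4 and HS-CC. In limma 0 were called in each selection, against 1, 1 and 6 at an unadjusted p under 0.05, again without a baseline. The median differences were 0.00, −0.01 and −0.01, close to those over all expressed probes (−0.00, −0.01 and −0.00). The smallest p-values in F2 belonged to Timm8b (0.06, SE 0.03), an intermembrane space chaperone, the peptidase Mipep (0.04, SE 0.02) and Mtx2 (−0.04, SE 0.02) of the outer membrane sorting machinery. In HS4 they belonged to Timm8a1 (−0.19, SE 0.09), the motor cochaperone Dnajc19 (0.12, SE 0.06) and the carrier translocase Timm22 (−0.05, SE 0.03). In HS-CC they belonged to the chaperone Timm9 (0.19, SE 0.07), the TIM23 subunit Timm21 (0.07, SE 0.03) and the cytosolic cochaperone Tomm34 (−0.09, SE 0.04). The lowest adjusted p-values were 0.510 in F2, 0.989 for HS4 and 0.206 for HS-CC.

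Markers of mitochondrial content were tested beside them, with 16 expressed probes of 13 genes in each selection. In F2 and HS4 0 were called, against 1 and 0 at an unadjusted p under 0.05, again without a baseline. In HS-CC 2 fell in High animals, where 2.22% of all expressed probes were called lower. Vdac2, a channel of the outer membrane, had a mean of 11.30 in HS-CC High against 11.77 in HS-CC Low animals (−0.47, SE 0.09, adjusted p = 0.000297), and citrate synthase (Cs) 11.78 in High and 12.09 in Low (−0.32, SE 0.07, adjusted p = 0.00425). The median over the list was −0.02. Over arrays, the mean level of these probes correlated with Tomm22 at r = −0.28 in F2, −0.50 for HS4 and 0.05 for HS-CC without outlying arrays.

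Some markers of other cell types differed between the lines. The haemoglobin gene Hbb-bt fell in F2 High animals (mean 9.76 in High and 10.23 in Low, −0.47, SE 0.12, adjusted p = 0.0265), 1 of 3 blood probes, where 0.569% of all expressed probes were called lower. All 3 blood probes were lower in F2 High, by 0.09 to 0.47 on the log2 scale, each at an unadjusted p under 0.05, again without a baseline. Their mean level ran from 10.11 to 11.31 in F2 High, against 10.10 to 12.34 in F2 Low animals. In HS-CC the astrocyte gene Aldh1l1 fell by 0.10 for 1 of its probes (adjusted p = 0.0350), 1 of 7 astrocyte probes, and the oligodendrocyte gene Cldn11 rose by 0.30 (adjusted p = 0.0194), 1 of 7 oligodendrocyte probes, where 1.19% of all expressed probes were called higher. At an unadjusted p under 0.05 there were 3 of 7 astrocyte and 3 of 7 oligodendrocyte probes, again without a baseline. The oligodendrocyte differences ran from 0.01 to 0.30. Tomm22 correlated with the mean blood level at r = −0.14 in F2, and in HS-CC at r = −0.11 with astrocyte and −0.00 with oligodendrocyte markers. The mean astrocyte level ran from 11.01 to 11.65 in HS-CC High, against 11.07 to 11.64 in HS-CC Low animals, and the oligodendrocyte level from 12.42 to 13.60 in High and from 12.24 to 13.08 in Low animals. On the arrays labelled HS4, Tomm22 correlated with the astrocyte level at r = −0.52 and with the spiny neuron level at −0.33. The part of these markers in the Tomm22 values was not tested.

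Over the animals of a selection, no correlation of Tomm22 with a partner subunit passed the test in F2 or HS-CC. Correlations were taken after subtracting line means, with Benjamini-Hochberg adjustment over 31 pairs of Tomm22 and another member probe. In F2 (n = 83) r ran from −0.17 for Tomm40 to 0.24 for the first Timm44 probe (rho = 0.22, permutation p = 0.0239, adjusted p = 0.0927), and 0 of 11 pairs passed an adjusted p of 0.05. In HS-CC (n = 96) r ran from −0.26 for Timm50 to 0.29 for Timm17a, where rho was −0.05 and −0.04, and 0 of 10 passed. Without the outlying HS-CC array, all 10 lay between −0.17 and 0.09.

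On the arrays labelled HS4 (n = 96), r ran from −0.47 to 0.49, with 4 of 10 pairs past the threshold by Pearson's r and 3 by Spearman's rho. Tomm6 passed by both (r = 0.49, adjusted p = 0.00031; rho = 0.29, adjusted p = 0.0471), as did Timm17a (r = 0.46, adjusted p = 0.00031; rho = 0.34, adjusted p = 0.0197). Without the 2 arrays farthest from the Tomm22 median, r was 0.37 and 0.31, and without outlying arrays 0.37 and 0.22. The Timm44 probes ran the other way, with r of −0.15, −0.40 and −0.47 and rho of −0.32, −0.21 and −0.15. Without outlying arrays their r was −0.47, −0.25 and −0.21, so the order of the probes turned round. Without outlying arrays, HS4 was also the selection in which r exceeded 0.4 in size for 32.4% of all expressed probes with Tomm22, against 0.163% for F2 and 0.0198% for HS-CC. On the same HS4 arrays, the member probes lay between −0.47 and 0.46.

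Since the widest gap in Tomm22 divided the arrays into a lower and an upper part, r was also taken within each. In F2 it ran from −0.21 to 0.36 among the 61 arrays above the gap and from −0.53 to 0.50 among the 19 below. In HS-CC it ran from −0.10 to 0.26 among the 74 above and from −0.44 to 0.12 among the 21 below. Among arrays labelled HS4 it ran from −0.54 to 0.62 among the 61 above and from −0.57 to 0.32 among the 31 below.

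The transcripts most like Tomm22 were not import genes. Among 13180 named probes expressed in all selections and ranked by their mean r with Tomm22, the best member probe stood at rank 117, and at rank 1692 without outlying arrays. The highest was Mgat3, a glycosyltransferase that adds the bisecting N-acetylglucosamine to N-glycans, with r of 0.80 in F2, 0.56 for HS4 and 0.76 for HS-CC. The intraflagellar transport gene Ift27 followed (0.71, 0.78 and 0.26), then the growth factor Pdgfb (0.62, 0.46 and 0.17), Tex261 (0.24, 0.60 and 0.41) and the DNA end-binding protein Xrcc6 (0.30, 0.65 and 0.27). The lowest were the autophagy gene Wipi2 (−0.07, −0.62 and −0.31), the general transcription factor Gtf2e1 (−0.18, −0.50 and −0.31) and the complex III subunit Uqcrc2 (−0.27, −0.45 and −0.25). Without outlying arrays Mgat3, Ift27 and Pdgfb were still among the highest 5, and Uqcrc2 among the lowest 3. In HS-CC r was then 0.72 for Mgat3, 0.04 for Ift27, 0.14 for Pdgfb, 0.26 for Tex261 and 0.02 for Xrcc6.

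Mgat3, Ift27, Pdgfb and Xrcc6 lie on chromosome 15, as does Tomm22, and Tex261 lies on chromosome 6. In the protein-coding gene order of the GRCm38.p6 gene table, Pdgfb is 10 and Mgat3 14 genes from Tomm22 on one side, Xrcc6 is 45 genes away on the same side, and Ift27 is 48 genes away on the other. In F2, 16 of the 20 probes with the highest r lay on chromosome 15, which holds 4.19% of the ranked probes. In HS4 and HS-CC 1 and 3 of 20 did. The same F2 animals, crossed from a single pair of strains, stand behind all 16 values, so these probes are not independent of each other.

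**Figure D3:**
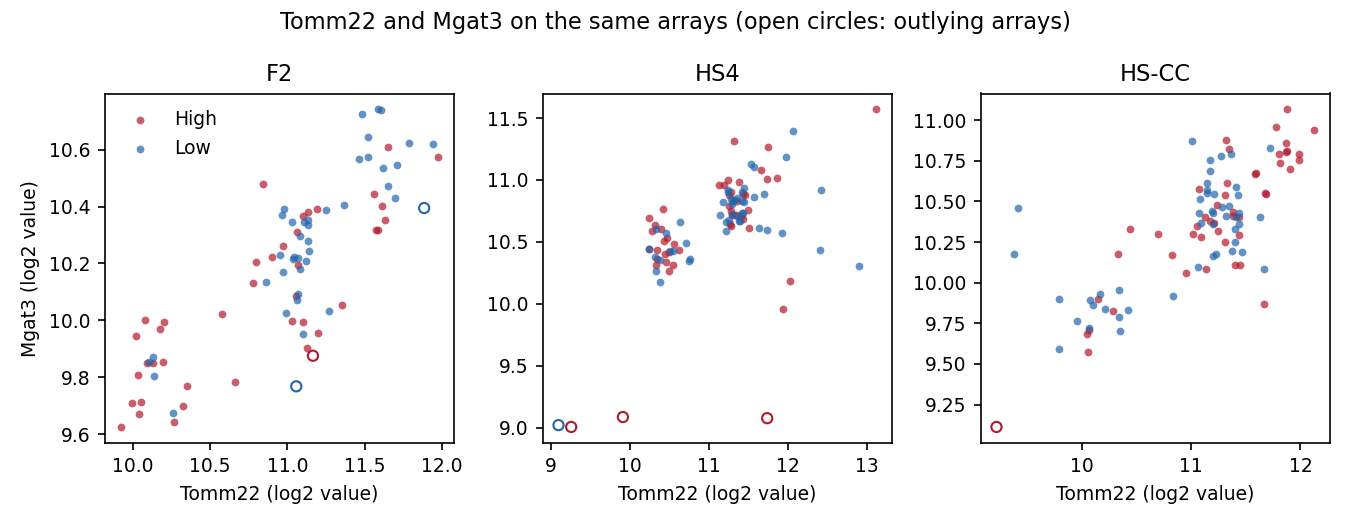
Deposited log2 values of Tomm22 (x) and Mgat3 (y) on the same arrays in F2, HS4 and HS-CC, by line, with outlying arrays as open circles. The points follow the rising trend most closely in F2, with r of 0.83, against 0.53 for HS4 and 0.72 for HS-CC without outlying arrays.

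Mgat3 followed Tomm22 most closely in F2 and HS-CC, and less in HS4. Without outlying arrays, Tomm22 and Mgat3 correlated at r = 0.83 in F2 (rho = 0.83, n = 80), 0.53 in HS4 (rho = 0.53, n = 92) and 0.72 in HS-CC (rho = 0.69, n = 95). The 95th percentiles of r over the ranked probes were 0.21, 0.51 and 0.19, so in HS4 Mgat3 stood barely above it. Above the gap in Tomm22, r was 0.69 in F2, 0.03 for HS4 and 0.50 for HS-CC. Below it, r was −0.01, −0.14 and −0.24. Dividing the arrays on Tomm22 narrows its range, which by itself lowers r inside each group.

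Some of the genes next to Tomm22 on chromosome 15 differed between the F2 lines as well. Among the 30 nearest genes with an expressed probe, 15 on each side, 3 of 46 probes were called in F2, all lower in High, where 0.569% of all expressed probes were called lower. Mgat3 had a mean of 10.07 in F2 High against 10.29 in F2 Low animals (−0.22, SE 0.06, adjusted p = 0.0562). The stress-response transcription factor Atf4 had 10.14 in High and 10.41 in Low (−0.27, SE 0.08, adjusted p = 0.0994), and the Polycomb gene Cbx7 10.24 in High and 10.36 in Low (−0.12, SE 0.03, adjusted p = 0.0645). None of the 3 passed at an adjusted p of 0.05, and since they followed Tomm22 over the same animals (r = 0.83, 0.82 and 0.49), their differences are not independent of it.

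In HS-CC 0 of 45 neighbouring probes were called, against 3.41% of all expressed probes, and Mgat3 had 10.39 in High and 10.28 in Low animals (0.11, SE 0.08, adjusted p = 0.608). Atf4 followed Tomm22 in F2 but lay at r = 0.28 in HS-CC and 0.14 in HS4, while Cbx7 lay at 0.49 in F2, 0.46 in HS-CC and −0.04 in HS4. On the arrays labelled HS4, 1 of 45 was called, Cbx6 (9.91 in High and 9.61 in Low, 0.30, SE 0.06, adjusted p = 0.00712), against 0.046% of all expressed probes called higher. The immediate neighbour Josd1, a deubiquitinase, showed r of −0.05, 0.15 and −0.10 with Tomm22 in F2, HS4 and HS-CC. Josd1 was named after its values were seen.

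Counting sizes of r above 0.4, 6 of 46 neighbouring probes passed in F2, 2 of 45 in HS-CC and 12 of 45 in HS4. The shares over all expressed probes were 0.163%, 0.0198% and 32.4%, so in HS4 the neighbours held no larger a share than the rest of the array.

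**Figure D4:**
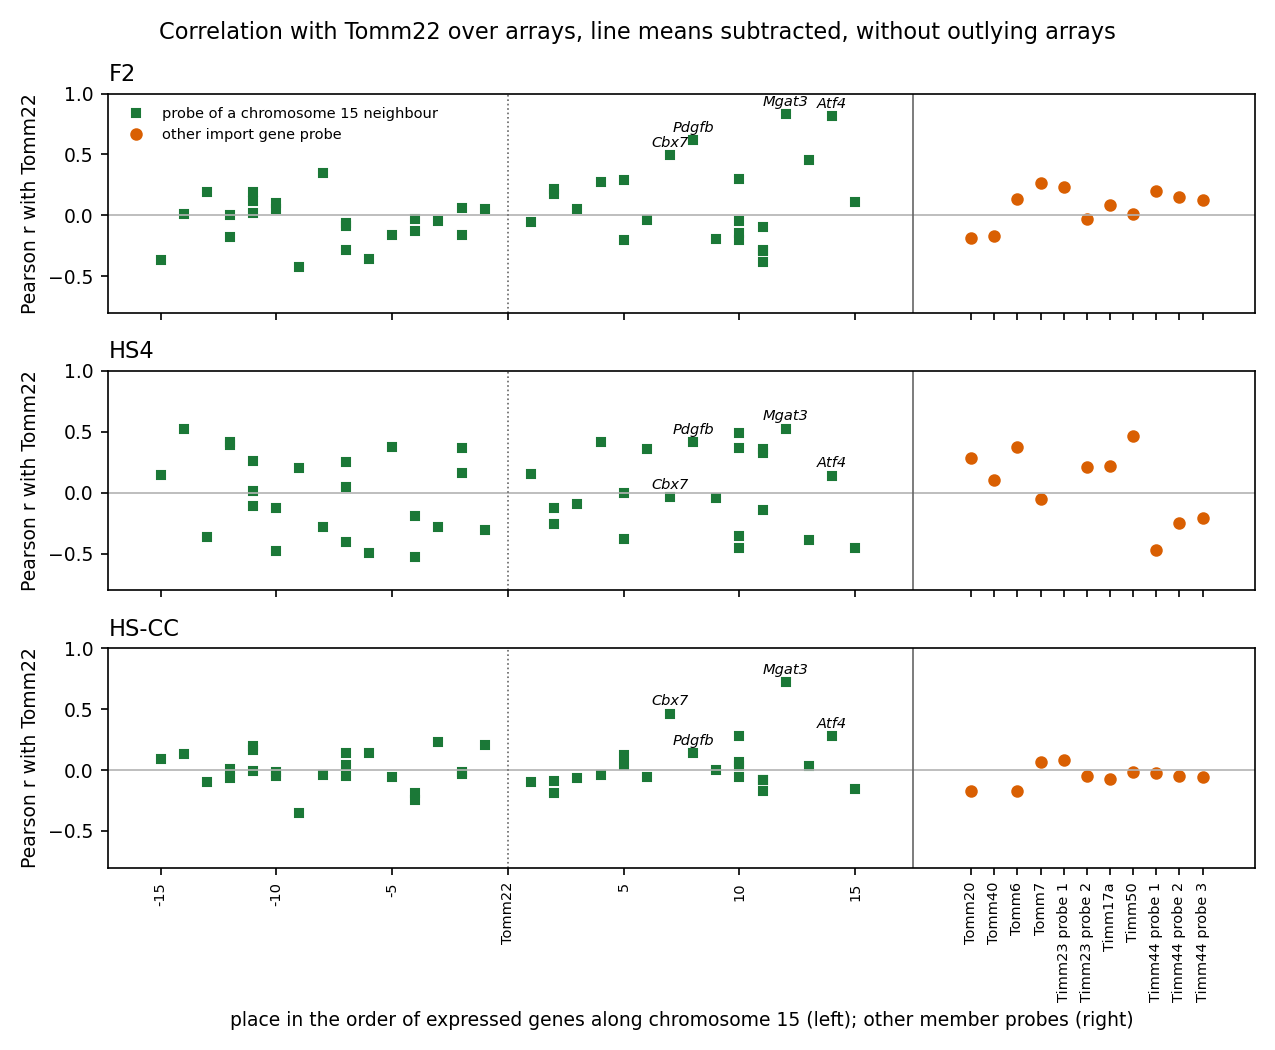
Pearson r with Tomm22 over arrays, line means subtracted and outlying arrays left out, for probes of the 30 nearest expressed genes on chromosome 15 in gene order (green squares) and for the other member probes (orange circles), in F2, HS4 and HS-CC. Mgat3 stands highest among the neighbours at 0.83, 0.53 and 0.72, and the member probes reach at most 0.26 in F2 and 0.09 in HS-CC.

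A different pair of members moved together in HS-CC. Tomm20 and the second Timm23 probe correlated at r = 0.83 (rho = 0.72, n = 95 without the outlying array), against 0.18 in F2 and 0.22 in HS4. This pair was singled out after its values were seen. Tomm20 lies on chromosome 8 and Timm23 on chromosome 14. The Tomm20 values of HS-CC fell into 2 groups across a gap of 0.18 between 9.15 and 9.34, with 24 of 47 High and 24 of 48 Low animals below it. Within the groups the 2 probes did not follow each other (r = 0.16 among the 47 arrays above and −0.16 among the 48 below).

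The split in Tomm20 was shared by transcripts on many chromosomes. Of 15118 other expressed probes, 70 (0.463%) had an r with Tomm20 above 0.8 in size in HS-CC, and those with a known position lay on 18 chromosomes, while 0 did so in F2 or HS4. Among the 10 highest were Ube2b on chromosome 11 (r = 0.97), a ubiquitin-conjugating enzyme, and the ATP synthase subunit Atp5j on chromosome 16 (r = 0.95). In F2 the same 10 probes had r of 0.28 to 0.74 with Tomm20, where the median size of r was 0.18. The count of 0 in F2 thus depends on the cutoff of 0.8. By Eif2s3y, 22 of the 47 arrays above the gap and 19 of the 48 below it came from males. No label of the HS-CC arrays gives a batch, and whether this split is technical was not tested.

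The HS-CC values of Tomm22 are also given within each side of this split, as a description without a test, since its HS-CC difference chose Tomm22. Above the Tomm20 gap, Tomm22 averaged 11.25 in 23 HS-CC High, against 10.82 in 24 HS-CC Low animals (0.43, SE 0.19). Below it, Tomm22 averaged 11.28 in 24 High and 11.01 in 24 Low animals (0.26, SE 0.15). The correlation of Tomm22 with Mgat3 was 0.86 above and 0.52 below, and with the other members from −0.30 to 0.10 above and from −0.24 to 0.26 below.

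**Figure D5:**
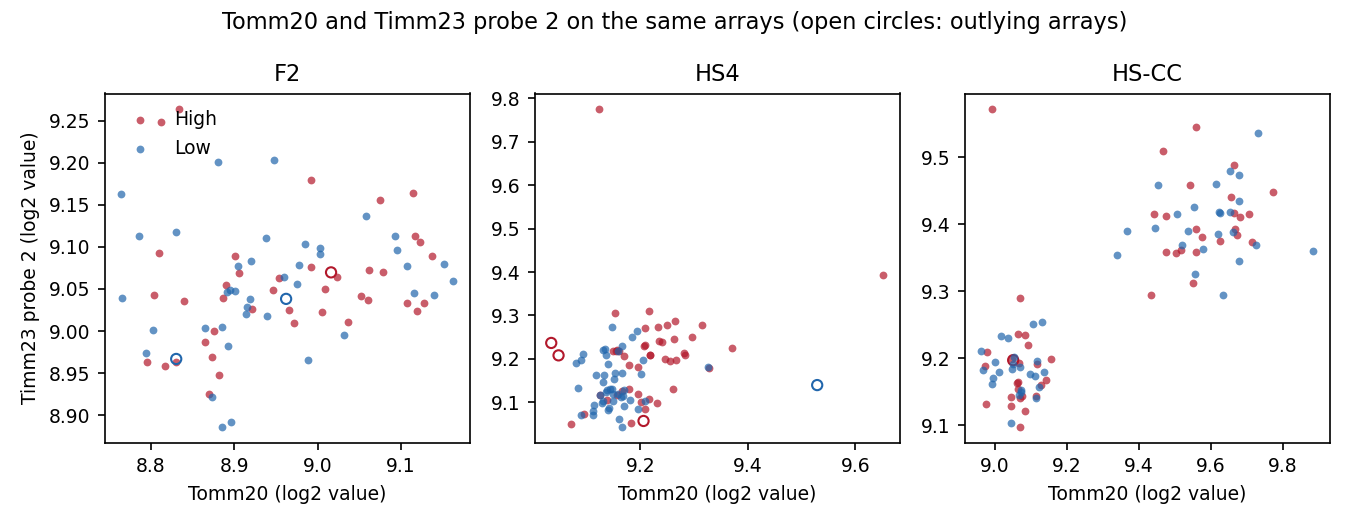
Deposited log2 values of Tomm20 (x) and the second Timm23 probe (y) on the same arrays in F2, HS4 and HS-CC, by line, with outlying arrays as open circles. In HS-CC the arrays form 2 groups that both lines share, with 24 of 47 High and 24 of 48 Low arrays in the lower one, and in F2 and HS4 r was 0.18 and 0.22.

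Over all pairs of member probes from different genes other than Tomm22, r without outlying arrays had a median of 0.13 over 51 pairs in F2, −0.07 over 42 in HS4 and 0.16 over 41 in HS-CC. In F2 it ran from −0.48 (Tomm20 with Tomm7) to 0.51 (Tomm7 with the first Timm23 probe). In HS4 it ran from −0.52 (Timm50 with the first Timm44 probe) to 0.38 (Tomm6 with Timm50), and in HS-CC from −0.35 (Tomm7 with Timm17a) to the 0.83 of Tomm20 and Timm23. Spearman's rho for the same pairs was −0.47 and 0.43 in F2, −0.17 and 0.06 in HS4, and −0.20 and 0.72 in HS-CC.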

How the data were processed

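Striatal RNA was measured on Illumina bead arrays, 1 per animal. The deposited values are log2-like intensities that the authors processed with lumi (version not given in the sources used here) and quantile normalized within each selection. Whether lumi's log2 or variance-stabilizing transformation was applied is not given there, and bead counts and detection p-values were not used here, so only the number of arrays limits the precision stated. Probe symbols came from GEO's platform annotation: 23978 probes had 1 symbol, 0 several and 1719 none. Groups followed the labels, and no array was dropped.

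High minus Low was fitted in each selection with limma 3.58.1 (lmFit, eBayes; R 4.3.3), adjusted by Benjamini-Hochberg over all expressed probes at a false discovery rate of 0.1. Interactions were fitted with all 6 groups together. Correlations used 100000 permutations within lines (Python 3.11.15, numpy 2.4.6, scipy 1.17.1, pandas 2.3.3; plots with matplotlib 3.10.9). The fits were checked on simulated data. Members, lists and tests were chosen with earlier results of these data known. Genes named were all members, the 3 smallest p-values per selection among the other import genes, called neighbours, and the 5 highest and 3 lowest mean r with Tomm22. Other genes were named after their values were seen (Josd1, Ube2b, Atp5j), as were called list members. The labels give families in HS4 alone, and p-values take relatives as independent. Alternatives were other probe filters, outlying arrays left out, a rate of 0.05, an intensity trend, sex and family terms, joint normalization, medians, Spearman's rho and line means kept.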

Additional observations from a re-analysis of the deposited data

How the results depend on the processing

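Counts of called member probes moved by a probe or so. They include Tomm22, whose F2 and HS-CC differences chose it, so its part in them is no test and nothing is read from it. In F2 the count of 0 became 1 (Tomm22) among probes variable in every selection, among probes above background on 75% of arrays, and with measured sex as a term. In HS4 the count of 0 became 1 (Tomm20) without outlying arrays. In HS-CC the count of 1 (Timm44) became 0 among variable probes, among all probes, with an intensity trend and at a rate of 0.05, and 2 (with Tomm22) without the outlying array. The 3 neighbours called in F2 became 0 at a rate of 0.05. Leaving out each array in turn, Tomm22 minus the other members ranged from −0.42 to −0.37 in F2, −0.23 to −0.15 for HS4 and 0.30 to 0.37 for HS-CC. The 2 sides of the Tomm20 split, chosen after seeing the data, gave 0.47 and 0.26 in HS-CC. The difference of Tomm22 medians was smaller than that of means (−0.21 in F2, −0.04 for HS4 and 0.15 for HS-CC). Another 13 values of uncalled members changed sign. The causes were not tested. No paired analysis was possible because animal numbers shared between selections belong to separate animals, and High and Low animals of a selection share none. Dim probes (Tomm20, Tomm40, Timm23) lie near background, where differences may be understated.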
